A study of Mus musculus with 5 samples.

Results

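The endoplasmic reticulum (ER) folds the proteins that a cell secretes or places in its membranes, and the genes described here encode its chaperones, its disulfide bond enzymes, the machinery that removes misfolded proteins, and the sensors of the unfolded protein response. The list holds 36 mouse genes chosen by name and not by a cutoff on their values, though with earlier results of these data known. Of the 36, 34 were measured among the 22206 probe sets of the array. Of the 34, 33 were found by their listed symbol and Ero1b was found through its older name Ero1lb. Manf and Pdia4 were not analysed here. No gene had several probe sets, so each was read from 1.

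RNA was taken from the mouse fibroblast line 3T3-L1, which becomes fat cells in culture, after 4 days in basal medium, 4 days with insulin (5 µg/mL), dexamethasone (1 µM) and IBMX (0.5 mM), 2 days with insulin alone and 1 day back in basal medium. The exposed group (3 arrays) then spent 72 h in RPMI-1640 medium with 10% serum opposite human MM.1S multiple myeloma cells, which were held behind a transwell membrane with 0.4 µm pores. The control group (2 arrays) spent the same 72 h in that medium alone. The labels call the samples of a group replicates without saying that they were separate cultures, so every p-value reflects the spread between these 5 samples alone, and that spread may be technical. Each value is a deposited log2 expression value of a Clariom S mouse array, so a difference of 1 is a 2-fold difference. In RNA of whole cultures a smaller number of expressing cells and less RNA per cell cannot be told apart.

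In mammalian cells, unfolded proteins in the ER are sensed by the membrane proteins IRE1 (gene Ern1), PERK (Eif2ak3) and ATF6 (Atf6). IRE1 splices Xbp1 mRNA so that it encodes an active transcription factor, PERK phosphorylates the translation factor eIF2α and so favours translation of ATF4, and ATF6 is cut in the Golgi to release a transcription factor. ATF6 and XBP1 then raise transcription of ER chaperones and degradation genes, and fat cells, which secrete large amounts of adiponectin and other proteins, depend on this capacity. The array gives 1 level for Xbp1 and does not separate its spliced from its unspliced form.

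Many of these genes share a promoter element. The ER stress response element (ERSE) is CCAAT, a binding site for the factor NF-Y, followed after any 9 bases by CCACG, a site for ATF6 or XBP1. In ERSE-II, a related arrangement, ATTGG is followed after any 1 base by CCACG. Both were searched on both strands of RefSeq promoter windows (GRCm38.p6, 250 bases before to 50 after each start), which were at hand for 31 of the 34 measured genes. Atf6, Hyou1 and Derl1 had no window. A gene was counted if any of its windows held the letters. ERSE was present for 10 of those 31 genes (32.3%) and for 0.137% of all 27025 genes with windows. ERSE-II was present for 2 of the 31 (6.45%) and for 0.0444% of all genes with windows. The 12 genes were Hspa5, Hsp90b1, Calr, Canx, Dnajc3, Pdia6, Ero1b, Creld2, Syvn1 and Derl3 with ERSE, and Dnajb11 and Herpud1 with ERSE-II. The half-site CCACG alone, which lies within both elements, was present for 25 of the 31 genes (80.6%) and for 35.5% of all genes with windows. The XBP1 motif TGACGTGG was present for 0 of the 31 and for 0.714% of all genes with windows. A match is a description of the letters, and a missing match says only that these letters are not in the window.

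The elements of 7 genes are shown because they span the chaperones, the disulfide isomerases and the degradation genes and let the levels below be read beside the shared motif. Each run is 5′ to 3′ on the strand of its gene, with the fixed letters of the element in capitals and the spacer and flanks in lower case. Calr and the shown element of Hsp90b1 carry ERSE on the opposite strand, so there the capitals read CGTGG and ATTGG.
Hspa5: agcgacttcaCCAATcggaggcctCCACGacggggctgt
Hsp90b1: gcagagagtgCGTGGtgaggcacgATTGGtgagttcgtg
Calr: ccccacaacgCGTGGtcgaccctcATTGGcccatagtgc
Dnajc3: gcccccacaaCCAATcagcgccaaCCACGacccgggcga
Pdia6: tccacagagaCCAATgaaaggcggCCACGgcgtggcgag
Syvn1: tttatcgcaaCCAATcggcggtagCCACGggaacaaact
Herpud1: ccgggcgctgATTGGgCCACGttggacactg
The Hspa5 run lies at chr2:34772015-34772053 on the plus strand, with its element 65 to 47 bases before the start site. The Syvn1 run lies at chr19:6046522-6046560 on the plus strand, with its element closest to the start of the 7, at 44 to 26 bases before it. The Hsp90b1 run lies at chr10:86705523-86705561 on the minus strand, 107 to 89 bases before the start, and a second ERSE of that promoter lies 212 to 194 bases before it. The runs of Calr (chr8:84847065-84847103, minus strand), Dnajc3 (chr14:118937817-118937855, plus strand), Pdia6 (chr12:17266481-17266519, plus strand) and Herpud1 (chr8:94386367-94386397, plus strand) also lie upstream of their start sites. Of the 11 ERSE matches in these genes, 6 read on the gene strand and 5 on the opposite strand.

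Adipocyte markers were bright in both groups, with a mean log2 level of 10.43 over the 7 measured. Fabp4, the fatty acid carrier of adipocytes, lay at 12.35 to 12.40 on exposed and 12.34 to 12.41 on control arrays, Adipoq, which encodes adiponectin, at 11.39 to 11.73 and 11.55 to 11.61, and Pparg, the main adipogenic transcription factor, at 10.95 to 11.05 and 10.96 to 10.99. Of the 7 measured adipocyte markers, 2 were higher and 5 lower in mean on exposed arrays, with Plin1 at -0.25 and Cebpa at -0.24 the widest apart, and none passed the test (limma adjusted p 0.93 or above). On exposed array 3, 4 of the 7 were at their lowest of the 5 arrays (Plin1, Cidec, Cebpa and, by under 0.01, Pparg) and 1 at its highest (Adipoq). Plasma cells carry a very large unfolded protein response, so their markers were read too: Mzb1 lay at 2.30 to 2.93 on exposed and 2.61 to 3.28 on control arrays, and Prdm1 at 2.08 to 2.28 and 2.04 to 2.40. Sdc1, which encodes CD138 and is also made by other cell types, was the only one of the 9 at or above the median level of all probe sets, at 7.26 to 7.81 on exposed arrays and 7.46 on both control arrays. The 9 measured plasma cell markers had a mean log2 level of 3.65 and the 8 macrophage markers one of 3.24, against 5.16 over all probe sets. Cd79b (-0.37) in the plasma cell list and C1qa (-0.51) and C1qc (0.45) in the macrophage list differed most. Markers of preadipocytes and fibroblasts were also bright, with a mean of 8.70 against 5.16 over all probe sets, and the share of fat cells was not measured. Of these 6 markers 5 were lower in mean on exposed arrays, with Dlk1 at -0.28 and S100a4 at -0.25. The part of these shifts in the results below was not tested. The array was made for mouse genes and does not show whether human RNA was present.

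Levels of the ER genes on exposed arrays stayed close to those on control arrays. Group differences (exposed minus control) ran from -0.29 for Hyou1 to 0.30 for Pdia5, with 13 genes higher and 21 lower in mean and a median of -0.044, where all probe sets had a median of -0.00040. With a threshold of 0.05 on the adjusted p, limma called 0 of the 34 genes and 0 of 22206 probe sets (0%), and the smallest adjusted p was 0.93. At an unadjusted p under 0.05 it found 0 of the 34, where 3.49% of all probe sets passed; with 1 array left out it found Xbp1 without exposed array 2 and Ero1b without control array 2. All 34 intervals lay within a 2-fold difference in either direction, as did 92.9% of all intervals, and 24 of the 34 (70.6%) lay within 1.5-fold, against 52.7% of all intervals. The widest reach was that of Hyou1, down to -0.90. Without control array 1 or without control array 2 the count within 2-fold was 29, and Hspa5, Hyou1, Eif2ak3 and Pdia5 were among those no longer held within it in both cases. Without exposed array 1 or 2 it was 33, the exception being Hyou1.

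**Figure D1:**
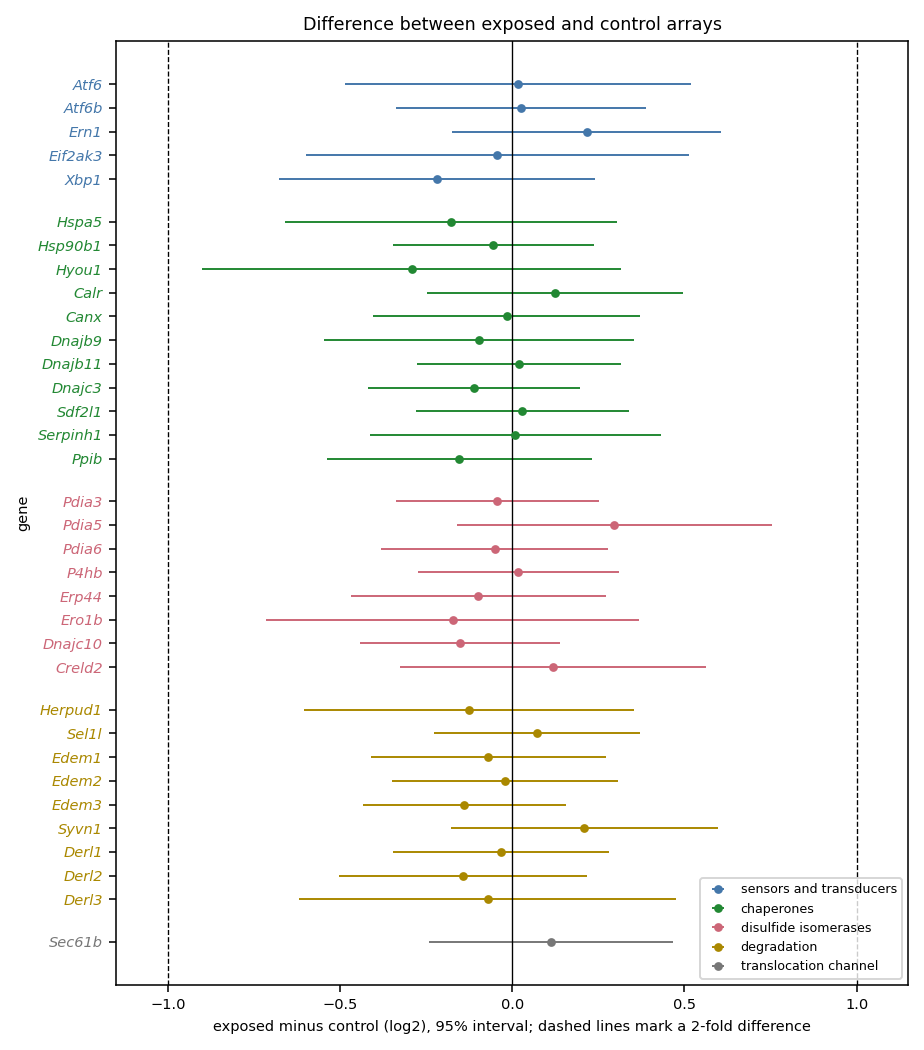
Exposed minus control difference of each gene on the log2 scale (point) with its 95% interval from limma (line), over 3 exposed and 2 control arrays, with genes grouped by role. Every interval crosses 0 and ends inside the dashed lines at a 2-fold difference; Hyou1 reaches lowest (-0.90) and Pdia5 highest (0.75).

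The differences were also small in size. Their median absolute value was 0.098, against 0.13 over all probe sets, and 5 of the 34 (14.7%) exceeded 0.2, against 32.9% of all probe sets. These genes are bright on the array, with a mean level of 8.34 and only Ero1b and Derl3 below the median level, so the comparison with all probe sets, many of them dim, is between unlike levels. The range among the 3 exposed arrays was larger than the group difference for 32 of the 34 genes (94.1%) and for 81.8% of all probe sets. Exposed and control arrays did not overlap for 3 genes, all lower on every exposed array; of all probe sets 17.3% did not overlap, 8.84% being lower and 8.5% higher on every exposed array. These were Ppib, Dnajc10 and Edem3, and 0 genes were higher on every exposed array.

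**Figure D2:**
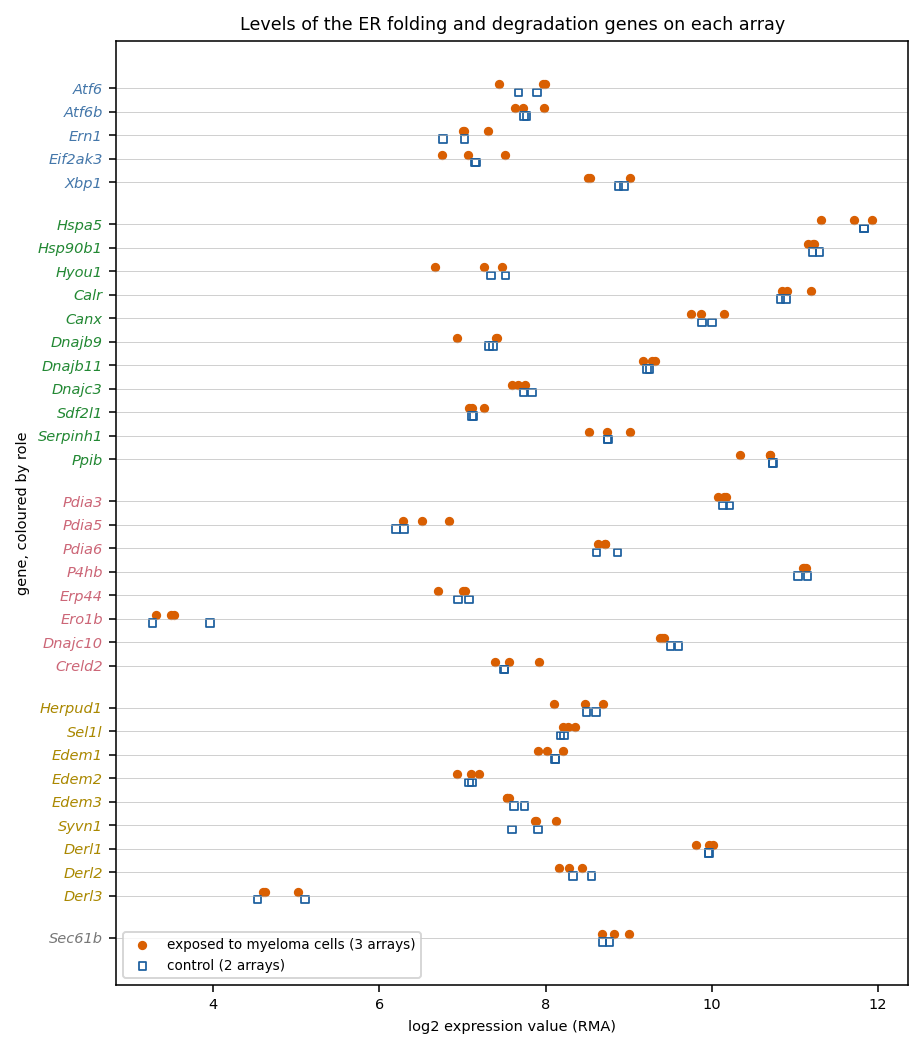
Log2 expression value of each gene on each array, with exposed arrays as filled circles and control arrays as open squares just beneath, in blocks from the top for sensors and transducers, chaperones, disulfide isomerases, degradation genes and the translocation channel gene Sec61b. Circles and squares of a gene overlap except for Ppib, Dnajc10 and Edem3, whose exposed values all lie to the left.

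The sensors had the widest scatter of the roles among exposed arrays by median SD over the 3 arrays. It was 0.28, against 0.20 for chaperones, 0.14 for degradation genes and 0.083 for disulfide isomerases. Ern1 (0.17) and Atf6b (0.18) lay below the chaperone median. Eif2ak3, the kinase gene of the PERK branch, read 7.51, 7.06 and 6.76 on exposed arrays 1, 2 and 3, and 7.16 and 7.15 on the control arrays. Exposed arrays thus stood on both sides of the nearly equal controls, and the difference was -0.044 (95% interval -0.60 to 0.51, limma adjusted p 0.99). Ern1, which encodes IRE1, read 7.31, 7.02 and 7.01 on exposed arrays and 6.76 and 7.03 on control arrays. Exposed array 1 was the highest and control array 1 the lowest, the difference was 0.22 (-0.17 to 0.61, limma adjusted p 0.93), and the groups overlapped. That difference was 0.085 without control array 1, 0.35 without control array 2 and 0.12 without exposed array 1. Atf6 read 7.97, 7.996 and 7.45 on exposed arrays and 7.68 and 7.90 on control arrays, a difference of 0.016 (-0.49 to 0.52, limma adjusted p 0.996) in which exposed array 3 lay lowest and the other exposed arrays highest. Atf6b, a related factor, differed by 0.026. Xbp1, whose mRNA is the substrate of IRE1 and whose transcription ATF6 raises, read 8.54, 9.02 and 8.51 on exposed arrays and 8.94 and 8.88 on control arrays. Exposed arrays 1 and 3 were below both controls and exposed array 2 above both, for a difference of -0.22 (-0.68 to 0.24, limma adjusted p 0.93). With 1 array left out the Xbp1 difference ran from -0.38 (without exposed array 2) to -0.13 (without exposed array 3). Without exposed array 2 its unadjusted p was under 0.05, the only such gene of the 34 in that fit, with a limma adjusted p of 0.85, and no fit called it. The 5 genes had a median difference of 0.016, with 3 higher and 2 lower.

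Among the chaperones, 4 of 11 measured genes were higher and 7 lower in mean, with a median of -0.056. Hspa5, which encodes BiP, the central Hsp70 chaperone that also holds the sensors inactive, read 11.71, 11.93 and 11.32 on exposed arrays and 11.83 on both control arrays. The controls differed by less than 0.01 while exposed arrays lay on both sides of them, and the difference of -0.18 (-0.66 to 0.30, limma adjusted p 0.94) was -0.012 without exposed array 3 and -0.32 without exposed array 2. Hyou1, an Hsp110-type partner that exchanges the nucleotide of BiP, read 7.26, 7.48 and 6.67 on exposed arrays and 7.52 and 7.34 on control arrays. Its difference of -0.29 (-0.90 to 0.32, limma adjusted p 0.93) was -0.059 without exposed array 3 and -0.46 without exposed array 2. Ppib, a prolyl isomerase that helps collagen fold, read 10.70, 10.70 and 10.34 on exposed arrays and 10.73 and 10.74 on control arrays. Exposed arrays 1 and 2 were below the controls by a few hundredths and exposed array 3 by far more, so that the difference of -0.15 (-0.54 to 0.23, limma adjusted p 0.93) was -0.035 without exposed array 3.

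The other chaperone genes had differences from -0.11 to 0.12. Hsp90b1 (GRP94, the ER form of Hsp90) differed by -0.056, and the lectin chaperone genes Calr and Canx, which bind sugar chains of new glycoproteins, by 0.12 and -0.016. Among the J-domain partners of BiP, Dnajb9 differed by -0.096, Dnajb11 by 0.019 and Dnajc3, which also restrains PERK, by -0.11. Sdf2l1, which works with Dnajb11, differed by 0.029, and Serpinh1, the collagen chaperone Hsp47, by 0.0091.

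Disulfide bonds of secreted proteins are formed and rearranged by the protein disulfide isomerase family. Of 8 measured genes 3 were higher and 5 lower, with a median of -0.048. Pdia5 had the widest difference of the whole list: it read 6.28, 6.84 and 6.52 on exposed arrays and 6.30 and 6.20 on control arrays. Exposed array 1 lay between the controls and the other exposed arrays above them, for a difference of 0.30 (-0.16 to 0.75, limma adjusted p 0.93) that was 0.15 without exposed array 2. Dnajc10, a reductase that opens disulfide bonds before degradation, read 9.40, 9.43 and 9.38 on exposed arrays and 9.60 and 9.50 on control arrays. Every exposed array was lower than both controls, and the difference was -0.15 (-0.44 to 0.14, limma adjusted p 0.93). Ero1b, an oxidase that recharges the isomerases, was dim, at 3.53, 3.49 and 3.32 on exposed arrays and 3.96 and 3.27 on control arrays. The 2 controls were the highest and the lowest of the 5 values, and the difference of -0.17 was 0.17 without control array 1 and -0.52 without control array 2. P4hb, the founding isomerase, was among the most even genes, at 11.04 to 11.15 over all arrays with a difference of 0.018. Pdia3 differed by -0.043, Pdia6 by -0.052, Erp44, which retains client proteins in the early secretory pathway, by -0.099, and Creld2, an ER stress-induced gene, by 0.12.

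In ER-associated degradation, misfolded proteins are recognised, passed through the membrane and marked with ubiquitin. Of the 9 genes 2 were higher and 7 lower, with a median of -0.070. Syvn1, which encodes the ubiquitin ligase HRD1, read 7.89, 7.87 and 8.12 on exposed arrays and 7.60 and 7.91 on control arrays. Control array 1 stood below the other 4 arrays, and the difference was 0.21 (-0.18 to 0.60, limma adjusted p 0.93), or 0.052 without that array, 0.36 without control array 2 and 0.13 without exposed array 3. Sel1l, the partner of HRD1, differed by 0.071. Herpud1, a scaffold of the same complex, read 8.47, 8.69 and 8.10 on exposed arrays and 8.49 and 8.60 on control arrays. Its highest and lowest values were both on exposed arrays, and the difference of -0.13 (-0.61 to 0.35, limma adjusted p 0.95) was 0.036 without exposed array 3, -0.26 without exposed array 2 and -0.069 without control array 2. Derl2, a membrane protein of the retrotranslocation complex, read 8.44, 8.17 and 8.29 on exposed arrays and 8.33 and 8.55 on control arrays, a difference of -0.14 with overlapping groups. Without control array 2 it was -0.034, without exposed array 2 it was -0.078, and without control array 1 it was -0.25. Its relatives Derl1 and Derl3 differed by -0.033 and -0.072. Of the mannosidase-like genes, which help choose glycoproteins for degradation, Edem1 differed by -0.070, Edem2 by -0.022 and Edem3 by -0.14. Edem3 read 7.53, 7.56 and 7.54 on exposed arrays and 7.75 and 7.62 on control arrays, so that its exposed values were nearly equal and all below the controls (limma adjusted p 0.93). Its difference was -0.075 without control array 1. Sec61b, a subunit of the channel through which new proteins enter the ER, differed by 0.11.

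The order of the roles by median therefore spanned less than 0.1, from -0.070 for degradation to 0.016 for sensors, apart from the single gene Sec61b. It rested on single arrays: without exposed array 1 the chaperone median was 0.0084, without control array 1 the disulfide isomerase median was 0.035, and without exposed array 3 the degradation median was 0.0036 and that of the sensors 0.13. The last was -0.073 without exposed array 1.

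The genes differed as much among exposed arrays as between the groups. Exposed array 3 held the highest or lowest of the 5 values for 20 of the 34 genes (58.8%), where it did so for 46.9% of all probe sets; the counts were 12 for exposed array 1 (47.7% of all probe sets), 14 for exposed array 2 (32.9%), 12 for control array 1 (37.1%) and 10 for control array 2 (35.3%). It was the lowest array for 11 genes and the highest for 9. On the low side, its value lay below the mean of the other 4 arrays by more than 0.3 for Hyou1 (-0.73), Hspa5 (-0.51), Herpud1 (-0.47), Eif2ak3 (-0.46), Atf6 (-0.44), Ppib (-0.38) and Xbp1 (-0.33). On the high side it lay above that mean by more than 0.3 for Creld2 (0.43), Serpinh1 (0.33) and Syvn1 (0.31). Canx (0.27) and Sec61b (0.27) came next, and all these genes were named here after their values were seen. The genes more than 0.3 below that mean and those more than 0.3 above it both include carriers of ERSE or ERSE-II. These were Hspa5 and Herpud1 on the low side and Creld2 and Syvn1 on the high side. Canx, with its smaller rise, is a carrier too, while Hyou1 and Atf6, on the low side, had no promoter window to search. On the same array the adipocyte genes Plin1 (9.08, against 9.77 or above elsewhere) and Cebpa (5.88, against 6.24 or above elsewhere) were also low, as were 4 of the 7 adipocyte markers in all, while Adipoq was highest there, and their part in these values was not tested. The mean absolute difference over the 34 genes was 0.25 between exposed arrays 1 and 3, 0.22 between exposed arrays 2 and 3, 0.18 between exposed arrays 1 and 2 and 0.12 between the controls. Against control arrays 1 and 2 it was 0.18 and 0.13 for exposed array 1, 0.14 and 0.13 for exposed array 2 and 0.23 and 0.22 for exposed array 3. Over all probe sets the same measure was 0.29, 0.25 and 0.25 for those exposed pairs, 0.23 between the controls, and 0.21 to 0.27 between exposed and control arrays.

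**Figure D3:**
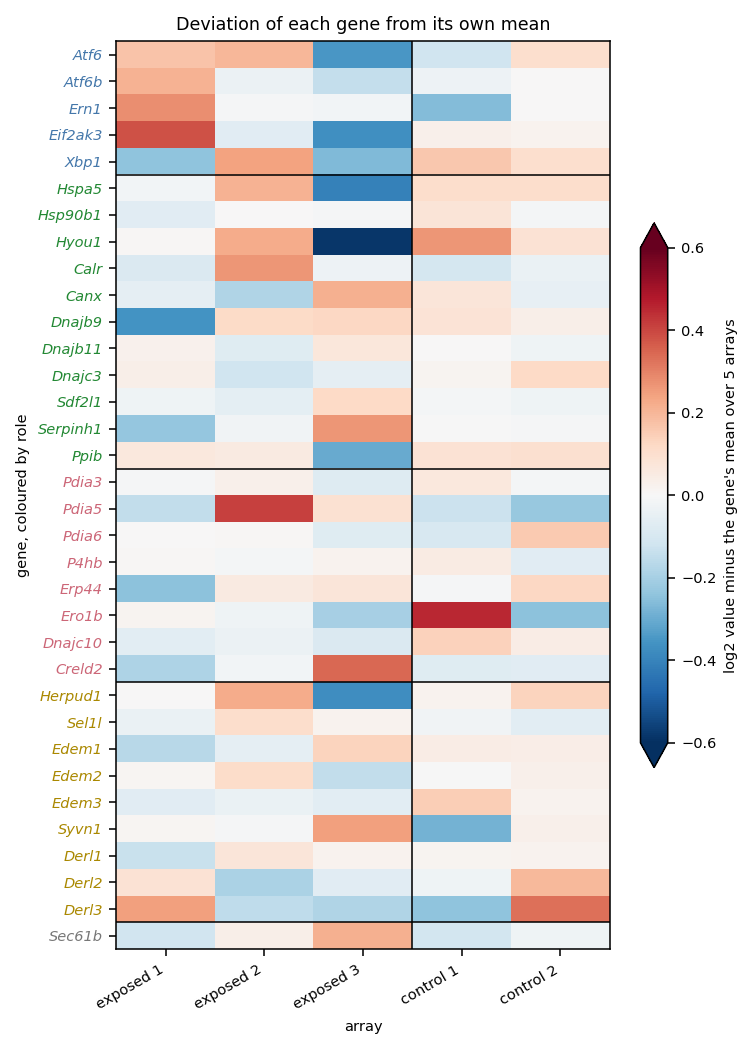
Log2 value of each gene minus its own mean over the 5 arrays (colour scale, red above and blue below the mean), with exposed arrays 1 to 3 to the left of control arrays 1 and 2 and roles separated by black lines. The deepest blue cells lie in exposed array 3 (Hyou1, Hspa5, Herpud1, Eif2ak3). Dnajb9 on exposed array 1 and Atf6 on exposed array 3 follow closely. Exposed array 3 also holds red cells (Creld2, Serpinh1, Syvn1). Redder ones lie on control array 1 (Ero1b), exposed array 2 (Pdia5) and exposed array 1 (Eif2ak3).

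The 12 carriers of ERSE or ERSE-II had 4 higher and 8 lower, a median of -0.054 and differences from -0.18 (Hspa5) to 0.21 (Syvn1). That median was 0.011 without control array 1, -0.019 without exposed array 3 and -0.027 without control array 2. The 19 genes whose windows held neither element had 8 higher and 11 lower and a median of -0.043. On exposed arrays 1, 2 and 3 the mean deviation of the carriers was -0.0060, 0.012 and -0.037, and on control arrays 1 and 2 it was -0.0047 and 0.036, so that exposed arrays 1 and 3 lay below both controls and exposed array 2 between them. Over all measured genes with either element in their windows, 37 in number and including these 12, 13 were higher and 24 lower with a median of -0.056, and none passed the test (limma adjusted p 0.93 or above).

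Other genes of the pathway were read from lists written for this comparison. In the PERK branch 9 of 9 measured genes were higher in mean on exposed arrays, where 11076 of all 22206 probe sets were. Their differences were 0.054 to 0.22 with a median of 0.11, and 0 passed the test (smallest limma adjusted p 0.93, and 0 at an unadjusted p under 0.05). Chac1, which breaks down glutathione and is a target of ATF4 and CHOP, read 7.72, 7.97 and 7.58 on exposed arrays and 7.75 and 7.31 on control arrays, and the groups overlapped. Sesn2, a stress-induced regulator of mTORC1, read 4.98, 5.10 and 4.98 on exposed arrays and 4.95 and 4.71 on control arrays, with every exposed array higher by a small margin. Ddit3, which encodes CHOP, was measured by 2 probe sets that disagreed in sign, at 0.13 for the brighter one that stands for the gene and -0.025 for the other. The brighter one is named unmapped in its identifier, and the count of 9 of 9 rests on it. Atf4 itself, which is governed mainly at translation, differed by 0.059. The mean deviation of this list was 0.050, 0.050 and 0.041 on the 3 exposed arrays and -0.037 and -0.10 on the 2 controls, higher on every exposed array than on either control; this separation was not tested. Without control array 2 its median was 0.069, and without exposed array 1 or without control array 1 the count was 8 of 9.

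Several related lists leaned the other way, with more genes lower than higher in mean. Of 9 genes for the Golgi protease that cuts ATF6, for ER-tethered factors of the same type and for NF-Y subunits, 7 were lower (median -0.17), with Creb3l2 at -0.40 and Creb3l4 at -0.42. Of the 9, 1 had a limma unadjusted p under 0.05 (Creb3l2, p 0.024, adjusted p 0.93), where 3.49% of all probe sets did. Of 6 genes whose mRNA is cut by IRE1, 5 were lower (median -0.12), with Scara3 at -0.35 and Col6a1 at -0.18. All 9 measured collagen-modifying enzymes, which work beside Serpinh1, Ppib and P4hb, were lower in mean (median -0.072), with Plod2 at -0.29 and P3h2 at -0.25, but without exposed array 2 or without exposed array 3 it was 6 of 9, with a median of -0.16 in the second case. Other ER folding genes had 10 higher and 20 lower (median -0.058), with Rcn1 at -0.41 and Pdia2 at -0.35. Creb3l4, P3h2 and Pdia2 were dim, with mean levels of 3.21, 3.57 and 4.10, below the median level of all probe sets (4.81).

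Entry, sugar addition and removal were split, while more exit and retrieval genes were higher than lower. Translocation and signal peptide genes had 11 higher and 11 lower (median 0.017), with Sec61a2 at -0.36 and Srp68 at -0.31. N-glycosylation genes had 8 higher and 7 lower (median 0.0048), with Dad1 at 0.36 and Ganab at -0.36. Further degradation genes had 10 higher and 10 lower (median 0.0050), with the segregase gene Vcp at -0.53 (unadjusted p 0.039, limma adjusted p 0.93) and Dnajb14 at 0.28. ER exit and retrieval genes, which load and recover vesicles, had 15 higher and 5 lower (median 0.047), with Surf4 at 0.22 and Lman1 at -0.28.

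Chaperones outside the ER were read for contrast. Cytosolic heat shock genes had 2 higher and 8 lower (median -0.15), with Hspb8 at -0.33 and Hsph1 at -0.22, and mitochondrial ones 3 higher and 3 lower (median 0.017), with Clpp at 0.28 and Lonp1 at -0.15. No gene of any of these lists passed the test (limma adjusted p 0.93 or above), and differences between lists were not tested.

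**Figure D4:**
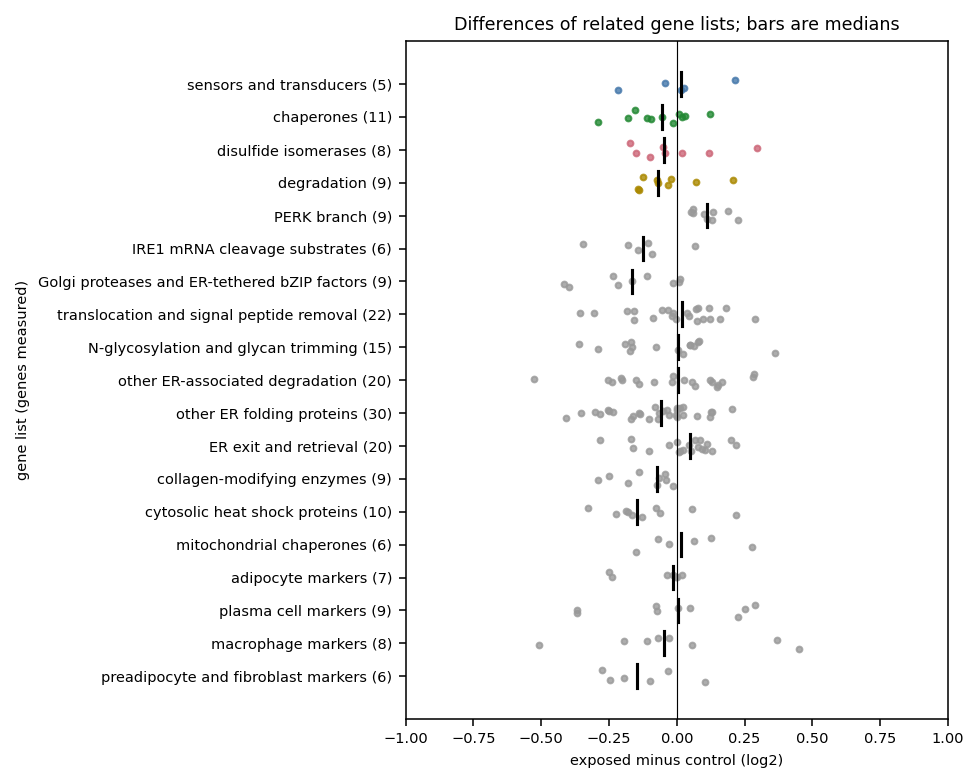
Exposed minus control difference (log2) of each gene in the 4 main roles (coloured) and in 15 related lists (grey), with vertical bars at the list medians and the number of measured genes in brackets; vertical scatter within a row is only for legibility. The bar of the PERK branch stands at 0.11 with all 9 points right of 0 (Ddit3 by its brighter probe set), and the bars of the 4 roles lie between -0.070 and 0.016.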

How the data were processed

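RNA of 5 samples was measured on Affymetrix Clariom S mouse arrays, and no counts or depths apply; the number of arrays limits precision. The deposited values are log2 levels that the authors made with RMA in Partek (named in the submitters' processing notes). Which versions and which annotation build they used is not given in the sources used here. Array medians lay between 4.80 and 4.88. The table has no detection calls. Of 22206 probe sets, 19572 had 1 symbol in the platform annotation and 2634 had none; a RefSeq table (GRCm38.p6) matched older symbols.

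The 2 groups were tested against each other over all probe sets (R 4.3.3, limma 3.58.1; lmFit and eBayes with group as the term; two-sided), with Benjamini-Hochberg adjustment and a call at an adjusted p under 0.05. The script was tested on simulated data. The genes and the 15 further lists (186 of 203 genes measured) were chosen with earlier results of these data known. Given on every array were Atf6, Ern1, Eif2ak3, Xbp1, Hspa5, Herpud1 and the 10 genes with the largest absolute difference; Edem3 was added after its values were seen. From each further list the 2 genes with the largest difference were named, and Adipoq, Fabp4, Pparg, Mzb1 and Prdm1 whatever their result; Atf4 and Ddit3 were added. Promoter windows came from RefSeq.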

Additional observations from a re-analysis of the deposited data

How the results depend on the processing

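Over the alternatives (a prior variance following the level, only the brighter probe sets by mean level (from the median up), centring of each array on its median, a further quantile normalization, array weights, a replicate block, each array left out, and the mean of a gene's probe sets), limma called 0 probe sets and 0 of the 34 genes at an adjusted p under 0.05. At an unadjusted p under 0.05 it found 776 probe sets (3.49%) and 0 of these genes with all 5 arrays and no such change. Where both controls were kept, the alternatives gave 3.26% (362, of the brighter probe sets alone) to 4.23% (940, without exposed array 2). Of these genes they found 1 without exposed array 2 (Xbp1) and 0 otherwise. The median difference of the 34 genes (-0.044) was -0.062 with centring on array medians, -0.024 with quantile normalization, -0.025 with the replicate block and -0.066 to -0.025 with 1 array left out. Role medians with 1 array left out were -0.077 to 0.0084 for chaperones, -0.066 to 0.035 for disulfide isomerases and -0.076 to 0.0036 for degradation genes, the last also -0.036 with quantile normalization and 0.0036 with the replicate block. Of 14 genes given on every array, 10 kept their sign throughout. Atf6 was -0.0022 with centring and -0.095 to 0.19 with 1 array left out, Eif2ak3 was 0.13 with the block and -0.24 to 0.13, Herpud1 was 0.036 with the block and -0.26 to 0.036, and Ero1b was -0.52 to 0.17. With centring 10 of the 34 were higher, and with quantile normalization 15. The cause of these shifts was not tested. The labels do not say whether same-numbered arrays shared a culture. Deviations of same-numbered arrays correlated at -0.014 and -0.032 over all probe sets. With 2 controls each value is the mirror of that with the other control (0.014 and 0.032), so these values do not settle a pairing, and other pairings were not fitted. With the block, exposed array 3 has no partner, so the differences of that fit equal those without exposed array 3. With 1 control array left, that array is assumed to vary like the exposed ones. Ero1b and Derl3 lie below the median level, and the table has no detection calls.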
